A study of Mus musculus with 42 samples.

Results

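Proliferating C2C12 cells, a mouse myoblast line called MB cells here, were examined by 3′READS, which sequences the 3′ ends of poly(A)+ transcripts, after 1 h of arsenic stress (AS, 250 µM sodium arsenite). The experiment comprises 3 of the 42 libraries of the series: 1 AS library and 2 libraries of non-treated (NT) cells labelled 0 h and 4 h, all of cytoplasmic RNA. The labels give the strain as C57BL/6, and no genetic change and no other agent is given for any of these cells. Differentiated C2C12 cells (MT cells, myotubes) with the same treatment, again with 2 NT libraries and 1 AS library, and 1 MB library taken 4 h after removal of arsenite (RC) are used beside them. All come from 1 cell line, and no label says that the 2 NT libraries are separate cultures of 1 condition. The NT pairs of both cell types are labelled 0 h and 4 h, and the AS libraries 0 h. P-values thus measure only the spread between such NT libraries, which may be technical or come with the labelled time. These were not told apart, and the lone AS library is assumed to vary like the NT pairs.

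Arsenite binds thiol groups of proteins and generates oxidative stress. Cells answer it through several known routes. HSF1 induces chaperones that bind unfolded proteins, NRF2 induces antioxidant enzymes, MTF1 induces metallothioneins, kinases of the MAPK family induce AP-1 and other immediate early genes, and phosphorylation of eIF2α slows translation while ATF4 and its target Ddit3 are made. The cleavage and polyadenylation site (PAS) of a transcript is usually preceded by the hexamer AATAAA or a variant of it, and genes with several PASs make 3′UTRs of different lengths, in which the region between the proximal (pPAS) and distal site (dPAS) is the alternative 3′UTR (aUTR).

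The NT libraries held 1649925 (0 h) and 1725942 (4 h) PAS reads and the AS library 2560185, so that more weak PASs reach the minimum of 5 reads for being listed in the AS library. Mitochondrial transcripts took 6.75% and 6.31% of the reads of the NT libraries and 3.44% of the AS library, and their part in the other differences was not tested beyond leaving them out of the gene counts. The MB label was checked against markers. All 9 myoblast markers were listed in each of the 3 libraries, at a summed level of 1414, 1918 and 2250 CPM (PAS reads scaled to library size by TMM) in NT 0 h, NT 4 h and AS cells. Id3 alone had 691.9, 1106 and 1461 CPM. The NT MT libraries also listed all 9, at 777.9 and 905.2 CPM. Myod1, Des and Cdh15 were higher in NT MT than in NT MB cells, and Myf5, Id1, Id3, Top2a, Mki67 and Ccnd1 were lower. This list thus separates the cell types less than the myotube list does. Of 11 myotube markers 3, 4 and 5 were listed, at 175.1, 248.5 and 285.2 CPM, against 24980 and 26420 CPM in the NT MT libraries; Ckm, Myh3, Myh8, Tmem8c and Myog were at 0 in the 3 MB libraries. Of 12 markers of other cell types, only Cd68 and Tubb3 were listed. The nuclear RNA Malat1 had 17, 0 and 10 reads.

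Most of the reads of the genes that rose most came from 1 PAS per gene. The PASs of 6 of them are shown here, to let their poly(A) signals be compared, as the 30 bases that end at the most used PAS, from NCBIM37 (mm9), written 5′ to 3′ on the gene's strand, with the poly(A) signal in capitals.
Atf3, chr1:192994175-192994204, minus strand: atAATAAAtatcggaacaaaacctggtaaa
Hspa1b, chr17:35093376-35093405, minus strand: ttaaatattcaaAATAAAaggttacaagta
Fos, chr12:86818195-86818224, plus strand: tgtcAATAAAagcatttaagttgaatgcga
Hmox1, chr8:77624460-77624489, plus strand: gaaatAATAAAtggcattatctaacagtca
Dnajb1, chr8:86135773-86135802, plus strand: gacagcATTAAAgactgatgctaaacctca
Ddit3, chr10:126733313-126733342, plus strand: tccatgtccAGTAAAgtgactttgtgtcaa
Atf3, Fos, Hmox1 and Ddit3 had 1 listed PAS in MB cells. The PAS shown carried 98.2% of the reads of Hspa1b and 81.4% of those of Dnajb1. Atf3, Hspa1b, Fos and Hmox1 have AATAAA, and Dnajb1 and Ddit3 have variants of it.

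The first comparison asks which transcripts were at another level after 1 h of AS. Reads were summed over the PASs of each gene's last exons, and 10093 genes were tested with edgeR's quasi-likelihood test over 8 cytoplasmic C2C12 libraries. After adjustment, 11 genes were higher in AS MB cells (0.109% of the genes tested), and 10 of them are described here, all of stress response families: Atf3, Hspa1b, Fos, Hmox1, Dnajb1, Zfp36, Dnaja4, Jun, Ddit3 and Hspb1. DESeq2, which gave no adjusted p to 7827 of the 10093 genes and so adjusted over fewer, put 44 genes higher and 10 lower. With edgeR no gene was lower (0%), although 350 genes were lower and 634 higher at an unadjusted p under 0.05. The count of 11 rests on both NT libraries: without NT 0 h the same fit put 420 genes higher and 182 lower, and without NT 4 h 45 and 3. In simulated data of this layout, with the common dispersion for every gene, the fit found 62% of genes changed 8-fold and 1% of those changed 2-fold. Changes of 2-fold were thus mostly not detectable in that setting. Other sizes of change and a spread that differs between genes were not simulated. In bulk RNA, fewer cells of a type and less RNA per cell cannot be told apart.

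**Figure D1:**
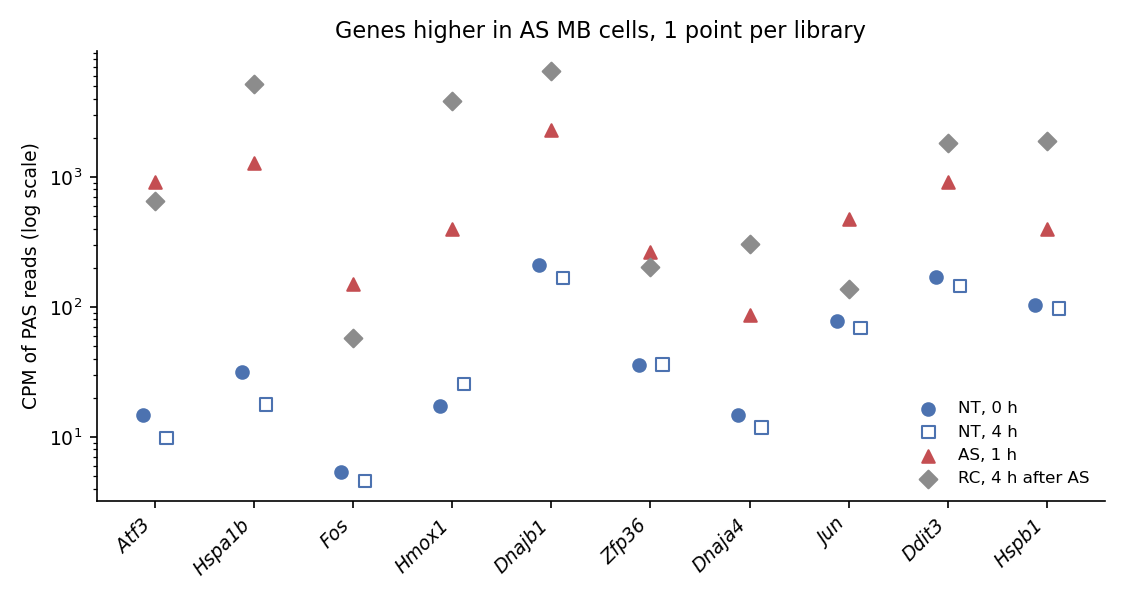
CPM of PAS reads (log scale) of 10 genes higher in AS MB cells, 1 point per library: NT 0 h, NT 4 h, AS and, for comparison, RC (4 h after AS). In each gene the AS point lies above both NT points, which are within 1 log2 unit of each other; Fos, Jun, Zfp36 and Atf3 are lower in RC than in AS, and the other 6 genes are higher.

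Among AP-1 genes, which encode the basic leucine zipper partners of the AP-1 transcription factor and its regulators, 3 of 11 members rose. Over all genes tested, 0.109% rose. Atf3, a stress-induced repressor of the ATF family, had 14.7 and 9.84 CPM in the NT libraries and 911 CPM in the AS library, from 22, 15 and 2169 reads. Its log2 fold change (log2FC) of 6.21 ± 0.27 (SE) was the highest of the 10 genes (adjusted p = 0.00475), and AS cells had 74.2 times the mean NT level. Fos had 5.35 and 4.59 CPM in NT and 150.8 CPM in AS cells (log2FC 4.91, adjusted p = 0.0137). Its partner Jun had 78.2 and 68.9 CPM in NT and 473 CPM in AS cells (log2FC 2.69, adjusted p = 0.0438), a call that was lost with library totals. The call of Fos was lost without PASs past annotated ends, which leaves it no reads. Its only listed PAS, at 86818224, lies just past the annotated end at 86818223. In all 3 genes the AS library was above both NT libraries, which differed from each other by at most 0.58 on the log2 scale. Fosb was not listed in either NT library and had 28 reads in the AS library, at least 2.2-fold higher when each unlisted PAS is given the 4 reads it could have had. Junb (log2FC 1.20), Fosl1 (0.65), Fosl2 (0.68) and Jund (0.69) lay above both NT libraries and did not pass the test, and the small MAF genes Mafg (0.27), Maff (0.08) and Mafk (0.05) were near 0 on this scale. In all, 9 of the 11 AP-1 genes were above both NT libraries in AS cells, against 36.2% of the 9478 genes tested and listed in MB cells.

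Of the other immediate early genes, Zfp36, which encodes the AU-rich element binding protein tristetraprolin, passed the test. It had 35.4 and 36.1 CPM in NT and 265 CPM in AS cells (log2FC 2.89, adjusted p = 0.0448), and its call was lost without PASs past annotated ends. The main PAS of Zfp36, at 29161802, lies just past the annotated end at 29161803 on the minus strand. The list holds 18 tested genes, of which 12 were above both NT libraries (36.2% of all genes) and 2 below (34.1%). Of these genes, 5 were at least 2-fold above both (2.81% of all genes). The orphan nuclear receptor gene Nr4a1 had 9.36 and 24.3 CPM in NT and 203 CPM in AS cells, and its log2FC of 3.59 missed the threshold (adjusted p = 0.0998). The antiproliferative gene Btg2 (log2FC 2.46, adjusted p = 0.107) and Ier2 (1.89, adjusted p = 0.321) also missed it. Egr1 was unlisted in both NT libraries and had 17 reads in AS cells, at least 2.67-fold higher. Srf (log2FC −0.81) and Nr4a2 (−0.35) lay below both NT libraries. MAP kinase phosphatases, which switch off the kinases upstream of these genes, gave no call among 10 members, but 2 were at least 2-fold above both NT libraries: Dusp1 had 61.5, 75.4 and 387 CPM (log2FC 2.50, adjusted p = 0.262), and Dusp2 had 0, 9 and 108 reads. Dusp6 and Dusp7 were below both NT libraries, at log2FC −1.06 and −0.69.

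In the HSP70 and HSP110 list, 1 of 13 genes passed the test (0.109% of all genes tested). In the same list 9 were above both NT libraries (36.2% of all genes). Hspa1b, the inducible HSP70, had 31.4 and 17.7 CPM in NT and 1267 CPM in AS cells (log2FC 5.69 ± 0.49 (SE), adjusted p = 0.0401), and its call was also lost without PASs past annotated ends. Its near-identical copy Hspa1a had no listed read in NT and 214 reads in AS cells, at least 11.2-fold higher (adjusted p = 0.0813). The main PAS of Hspa1b, at 35093376, lies just past the annotated end at 35093381 on the minus strand. How reads were divided between Hspa1b and Hspa1a, and between Hspa8 and its processed copies, is uncertain, because reads of low mapping quality were left out. Hspa8, the constitutive HSP70, was listed with 11 and 32 reads in NT and 453 in AS cells (log2FC 3.74, adjusted p = 0.372). The HSP110 gene Hsph1 had 238, 171 and 610 CPM (log2FC 1.58, adjusted p = 0.198). The mitochondrial HSP70 Hspa9 had 325 and 338 CPM in NT and 341 CPM in AS cells (log2FC 0.04).

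Of 14 HSP40 genes listed, whose products bring clients to HSP70 and stimulate its ATPase, Dnajb1 and Dnaja4 rose (0.109% of all genes tested). In this list 10 genes were above both NT libraries (36.2% of all genes), 3 of them by at least 2-fold (2.81%). Dnajb1 had 208 and 166 CPM in NT and 2307 CPM in AS cells (log2FC 3.63 ± 0.24 (SE), adjusted p = 0.0164). Dnaja4 went from 14.7 and 11.8 to 86.5 CPM (log2FC 2.70, adjusted p = 0.0499). Dnajb4 (log2FC 1.39) was also at least 2-fold above both NT libraries but did not pass the test, and Dnajb6 and Dnajc5 were at −0.01 and 0.00. The small heat shock protein gene Hspb1 had 103.6, 97.0 and 400 CPM (log2FC 1.99, adjusted p = 0.0499). The calls of Dnaja4 and Hspb1 lie at the threshold and were lost with library totals, with DESeq2's size factors and with no filter on low counts, and that of Hspb1 also without PASs past annotated ends. Bag3, which links small HSPs with HSP70 in autophagy, had 82.2, 84.6 and 256 CPM, and its log2FC of 1.62 missed the threshold (adjusted p = 0.0998). Cryab (log2FC 0.87) and Hspb8 (0.54) were above both NT libraries without a call. Of 13 genes for HSP90 and its co-chaperones, none passed the test, none was 2-fold beyond both NT libraries, and the list's median log2FC was 0.06, against 0.04 over all 9478 genes (−0.03 with genes unlisted in NT put at their bound). Hsp90ab1 had 138 and 184 CPM in NT and 134 CPM in AS cells.

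The list of ubiquitin, AN1 zinc finger and autophagy receptor genes is described only by single members, with no count over the list. The ubiquitin gene Ubb had 44.1, 23.6 and 111 CPM (log2FC 1.72, adjusted p = 0.372). The AN1 zinc finger genes Zfand5 (log2FC 1.25) and Zfand2a (1.42) and the autophagy receptor gene Sqstm1 (0.53) were above both NT libraries and did not pass the test.

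Of 16 NRF2 target genes tested, 1 rose (0.109% of all genes tested). Hmox1, heme oxygenase 1, had 17.4 and 25.6 CPM in NT and 396 CPM in AS cells (log2FC 4.2 ± 0.29 (SE), adjusted p = 0.0164). Osgin1 had 11.4, 5.25 and 42.0 CPM (log2FC 2.33, adjusted p = 0.372). The glutathione synthesis gene Gclm had 261 and 272 CPM in NT and 264 CPM in AS cells, the sulfiredoxin gene Srxn1 128, 119 and 119 CPM, and the thioredoxin reductase gene Txnrd1 32.1, 46.6 and 31.9 CPM. The ferritin heavy chain gene Fth1 had 10370 and 14090 CPM in NT and 6191 CPM in AS cells (log2FC −0.98, adjusted p = 0.411). Across the list 5 of 15 listed genes were above both NT libraries (36.2% of all genes) and 6 below (34.1%). The median log2FC of the list was −0.01. Hmox1 and Osgin1 were the 2 genes of the list at least 2-fold above both NT libraries (2.81% of all genes). The ferritin light chain gene Ftl1 was the 1 gene at least 2-fold below both (1.84%), with 13, 8 and 5 reads. Its AS value lies at the minimum of 5 reads for being listed, and its log2FC was −1.70 ± 1.675 (SE). In the RC library Gclm was at 1090 CPM, Srxn1 at 935 CPM and Txnrd1 at 199 CPM.

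All 3 genes of the metal response list were at least 2-fold above both NT libraries (2.81% of all genes). None passed the test. Metallothionein genes Mt1 and Mt2 encode small cysteine-rich metal-binding proteins and were abundant before stress. Mt1 had 1211 and 1038 CPM in NT and 3811 CPM in AS cells (log2FC 1.76, adjusted p = 0.465), and Mt2 had 1244, 1995 and 4749 CPM (log2FC 1.55, adjusted p = 0.593). The zinc exporter gene Slc30a1 had 21.4, 15.7 and 58.0 CPM. In MT cells the same genes varied between the NT libraries, with 548 and 1568 CPM for Mt1, and the spread between NT libraries of both cell types enters the test. In AS MT cells Mt1 was at 964 CPM, between its NT values.

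The integrated stress response was represented by Ddit3, the proapoptotic transcription factor CHOP, which rose from 170 and 144 to 910 CPM (log2FC 2.53 ± 0.20 (SE), adjusted p = 0.0331). The glutathione-degrading enzyme gene Chac1 had 12.0, 21.6 and 107 CPM (log2FC 2.66, adjusted p = 0.191), and Ppp1r15a, which encodes the stress-induced subunit of an eIF2α phosphatase, 12.0, 19.0 and 39.5 CPM (log2FC 1.34). The upstream factor gene Atf4 had 571, 611 and 965 CPM (log2FC 0.71, adjusted p = 0.442). The amino acid synthesis genes Psat1 (log2FC −0.14) and Phgdh (11 or fewer reads per library) were not above both NT libraries. In this list 1 of 14 genes passed the test (0.109% of all genes tested) and 8 were above both NT libraries (36.2% of all genes). Of 12 genes of the ER unfolded protein response none passed the test and 8 were above both NT libraries; Herpud1, a factor of ER-associated degradation, had 73.5, 45.2 and 253 CPM (log2FC 2.09, adjusted p = 0.173), while the chaperone gene Hspa5 was at 434, 403 and 623 CPM.

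Genes of the p53 response gave no call among 12 members. Of these, 5 were at least 2-fold above both NT libraries (2.81% of all genes) and 1, Sesn1, was at least 2-fold below (1.84%). The growth arrest genes Gadd45b (78.9, 54.4 and 323 CPM) and Gadd45g (250.0, 290.5 and 983 CPM) had log2FCs of 2.28 and 1.86, each with an adjusted p of 0.0998, and the kinase gene Plk2 had a log2FC of 1.73 (adjusted p = 0.116). Gadd45a had 36.1, 21.0 and 100.8 CPM (log2FC 1.82). Btg2, which is also on the list of immediate early genes, had a log2FC of 2.46. Both were at least 2-fold above both NT libraries. The list members Cdkn1a and Ccng1 had log2FCs of 0.15 and −0.47. Over all genes, 36.2% were above both NT libraries. Of 10 cytokine and growth factor genes listed, 8 were above both NT libraries and 1 was 2-fold above both: Vegfa had 12.7, 9.84 and 50.8 CPM (log2FC 2.17, adjusted p = 0.163).

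No extracellular matrix gene passed the test. Of 13 genes, 10 were above both NT libraries (36.2% of all genes), 5 of them by at least 2-fold (2.81%). The list's median log2FC was 0.85, against 0.04 over all genes. The fibronectin gene Fn1 had 151, 127 and 514 CPM (log2FC 1.89, adjusted p = 0.107), Col5a1 130, 116 and 287 CPM and Sparc 302, 347 and 707 CPM. In the RC library Fn1 was at 169 CPM. Of 11 actin and SRF target genes, 7 were above both NT libraries and 1, Cyr61, by at least 2-fold (40.1, 15.1 and 136 CPM).

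No gene of the lists of myoblast identity and proliferation passed the test. None of 17 cell cycle genes was above both NT libraries (36.2% of all genes) and 5 were below (34.1%). Their median log2FC was 0.01, and Cdk1 had 939, 636 and 926 CPM. Among myogenic regulators and ID genes 3 of 10 listed genes were above and 5 below both NT libraries; the 2 at least 2-fold below (1.84% of all genes) were Mef2a, at 90.9 and 120.6 CPM in NT and 44.1 CPM in AS cells (log2FC −1.26, adjusted p = 0.375), and Six4, at 20, 21 and 12 reads. The myoblast factor Myod1 had 12.7, 22.9 and 22.7 CPM. Of 17 sarcomere and fusion genes tested, 6 were listed in MB cells, none passed the test, 2 were above and 3 below both NT libraries. Cleavage and polyadenylation factor genes had a median log2FC of 0.04 over 18 genes, 7 above and 5 below both NT libraries. Cstf2t had the lowest log2FC (−1.75, adjusted p = 0.467), with 3647, 1433 and 757 CPM, and its NT libraries were 1.35 apart on the log2 scale. Of 16 stress granule and AU-rich element binding protein genes, 5 were above and 4 below both NT libraries, with a median of −0.03; G3bp1 had 120, 135 and 145 CPM.

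**Figure D2:**
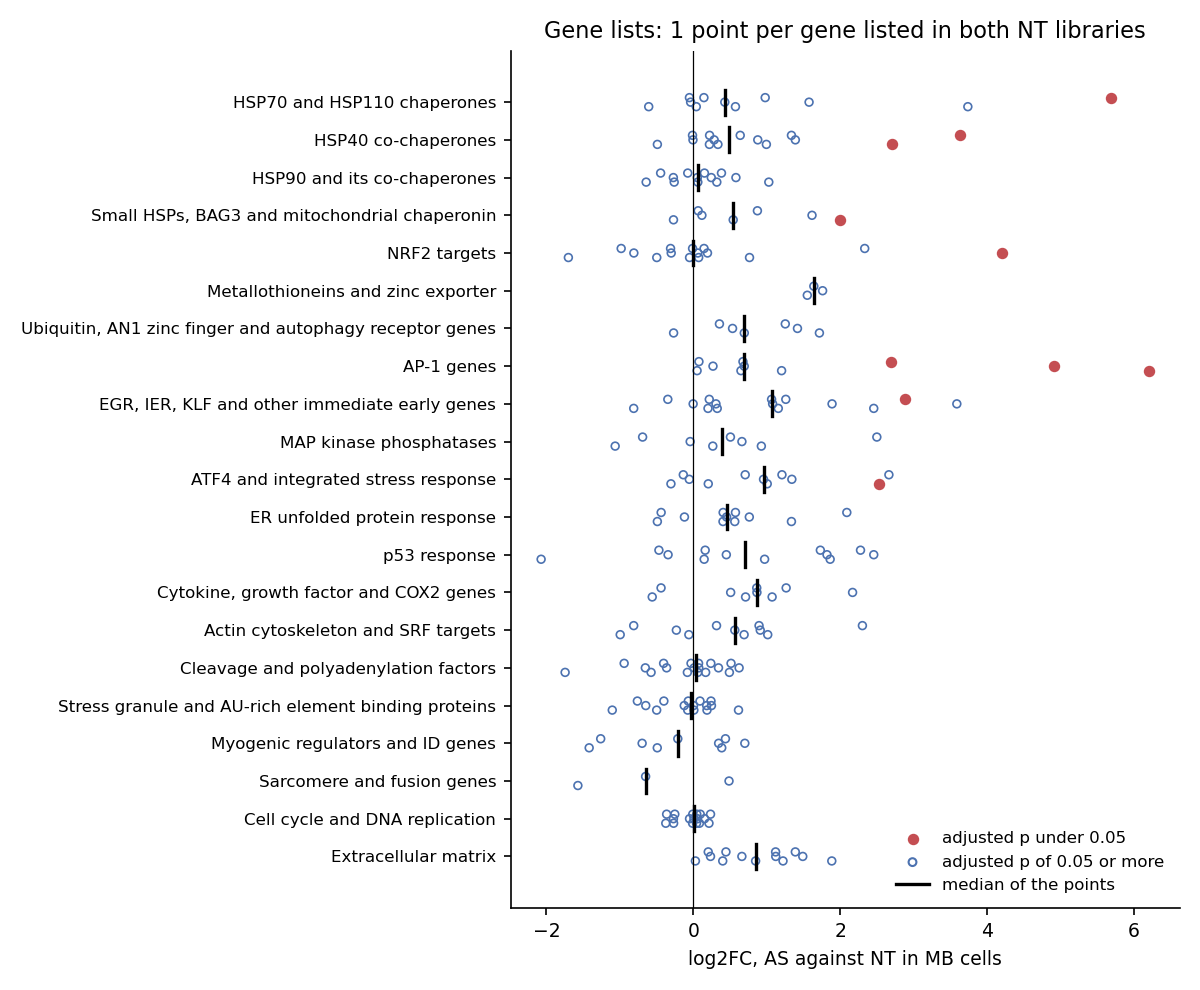
Fold change (log2FC, AS against NT, MB cells) of the members of 21 gene lists, 1 point per gene reported here and listed in both NT libraries. Filled points passed the test, open points did not, and bars are medians of the points shown; the filled points are in 7 lists, whereas the HSP90, cell cycle, stress granule and polyadenylation factor points scatter around 0.

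By size alone, 266 of 9478 genes (2.81%) were at least 2-fold above both NT libraries and 174 (1.84%) at least 2-fold below both. Between the NT libraries, 544 genes were at least 2-fold higher and 714 at least 2-fold lower in NT 4 h than in NT 0 h, a comparison of single libraries that is easier to pass. Against NT 4 h alone 1030 genes were at least 2-fold higher and 760 lower in AS cells, and against NT 0 h alone 532 and 380. Of the 266 and 174 genes, 182 and 146 had a mean under 50 reads. Among the 4682 genes with a mean of at least 50 reads, 84 were at least 2-fold above and 28 at least 2-fold below both NT libraries, and the SD of log2(NT 4 h/NT 0 h) was 0.51. Outside the lists, and named after their values were seen, these included the cyclin gene Ccnl1 (26.1, 26.2 and 139.5 CPM, adjusted p = 0.0813), the nuclear protein gene Csrnp1 (17.4, 32.1 and 124.8 CPM), the amino acid transporter subunit gene Slc3a2 (54.2, 45.9 and 181.5 CPM) and the splicing kinase gene Clk1 (71.5, 83.3 and 188 CPM). Among the 28 genes below, the GTPase gene Rhoq had the lowest log2FC, −1.70 (108, 184 and 44.95 CPM); the splicing regulator gene Mbnl1 had 457, 672 and 205 CPM, the translation repressor gene Eif4ebp2 82.2, 97.0 and 38.2 CPM, and the roquin gene Rc3h1 44.8, 73.4 and 18.9 CPM. None of these passed the test.

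**Figure D3:**
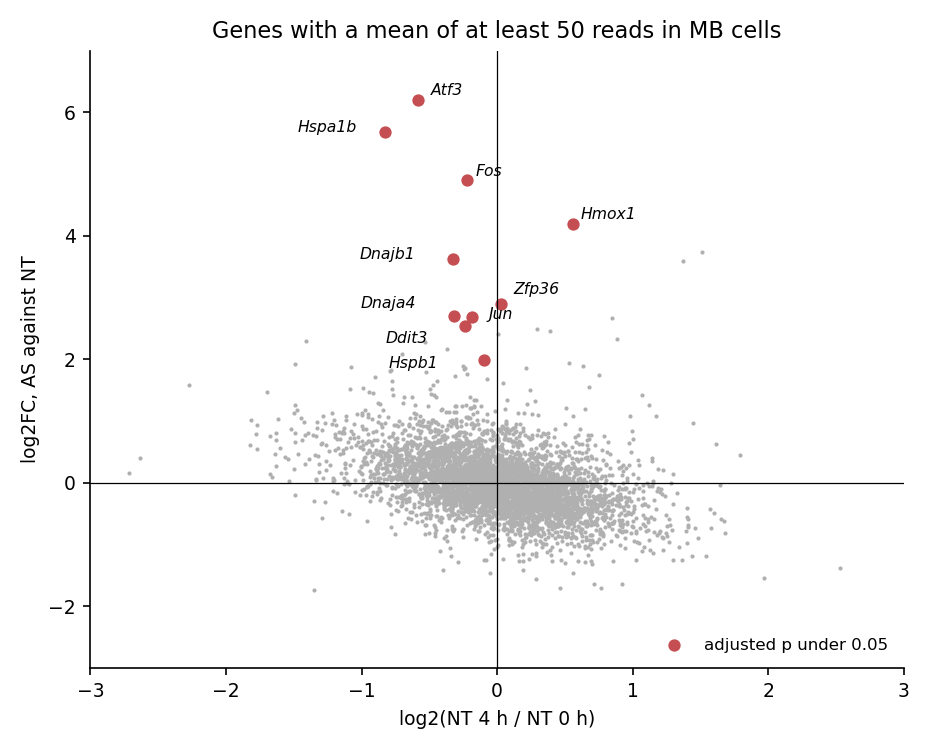
Each point is a gene reported here with a mean of at least 50 reads in the 3 MB libraries: log2FC of AS against NT on the vertical axis, log2(NT 4 h/NT 0 h) on the horizontal axis. The 10 genes shown that passed the test (filled, named) lie between 1.99 and 6.21 on the vertical axis, with NT libraries within 1 log2 unit of each other.

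MT cells, whose NT and AS libraries are separate from those of MB cells, give values that did not enter the choice of these genes. Of the 84 genes 2-fold above both MB NT libraries with a mean of at least 50 reads, 71 (84.5%) were above both MT NT libraries in AS MT cells, against 41.5% of all 4680 such genes listed in MT cells. Of the 28 genes 2-fold below, 22 (78.6%) were below both MT NT libraries, against 37.8% of all genes. Fos (log2FC 5.47 in MT cells), Atf3 (5.50), Jun (3.05) and Zfp36 (2.92) had MB values of 4.91, 6.21, 2.69 and 2.89. Hspa1b had a log2FC of 3.89 in MT and 5.69 in MB cells, Dnaja4 of 0.99 and 2.70 and Dnajb1 of 3.53 and 3.63. Tested as a difference of log2FCs, MB minus MT was 1.71 ± 0.38 (SE) for Dnaja4 (edgeR adjusted p = 0.831) and 1.80 ± 0.68 (SE) for Hspa1b (adjusted p = 0.831). No gene passed this test (354 had a higher and 219 a lower log2FC in MB cells at an unadjusted p under 0.05 in edgeR, and DESeq2 put 5 on each side; without NT 0 h of MB cells, edgeR put 21 and 6), which does not show that the cells answer alike.

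In the RC library of MB cells, 4 of these 10 genes were lower than in the AS library and 6 were higher. Fos had 57.8 CPM, Jun 136 CPM, Zfp36 203 CPM and Atf3 655 CPM. Hspa1b (5155 CPM), Hmox1 (3815 CPM), Dnajb1 (6490 CPM), Hspb1 (1897 CPM), Ddit3 (1806 CPM) and Dnaja4 (303 CPM) had the higher values. With 1 library each, these differences have no replicate check. Hsph1 (610 CPM in AS, 6167 CPM in RC) and Bag3 (256 and 1343 CPM) had the same order.

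Promoters of the risen genes were searched for 2 motifs in the RefSeq promoter table (GRCm38.p6, 250 bases before to 50 after the start), which held 9 of the 10 genes, all but Hmox1. The antioxidant response element, TGACNNNGC on either strand, was in the promoter of 1 of these 9 genes, Dnajb1, and in 13.99% of all 27025 genes of the table. It is shown with the match in capitals.
Dnajb1, chr8:83608150-83608179, plus strand: ccccggatgtGCTGCGTCAcggagcgggcc
A perfect heat shock element (3 GAA units in alternating orientation, each 2 bases from the next) was in none of the 9 promoters and in 0.662% of all genes.

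The second comparison asks whether 3′UTR isoforms shifted after 1 h of AS. In 2155 genes, both of the 2 most abundant 3′UTR PASs had over 5 reads in all 3 libraries, and these gave the relative expression difference (RED), log2(dPAS/pPAS) in AS cells minus that in NT cells. The median RED was −0.16 against the summed NT reads, −0.15 against NT 0 h and −0.17 against NT 4 h, and 0.01 for NT 4 h against NT 0 h. RED was below 0 in 60.3% of genes for AS against summed NT and in 49.3% for NT against NT. RED thus leaned towards pPASs against either NT library, in 1 AS library.

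Median RED was lower the longer the aUTR. Genes were divided into 5 bins by aUTR length. In the bin with the shortest aUTRs (25 to 120 nt) the median RED was −0.02, and it was −0.06, −0.09 and −0.21 in the next bins and −0.46 in the bin with the longest aUTRs (1631 to 7981 nt). NT 4 h against NT 0 h gave medians of 0.01, 0.06, 0.03, −0.02 and −0.01 over the same bins, without such an order. In MT cells the medians were −0.02, −0.12, −0.15, −0.22 and −0.37.

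**Figure D4:**
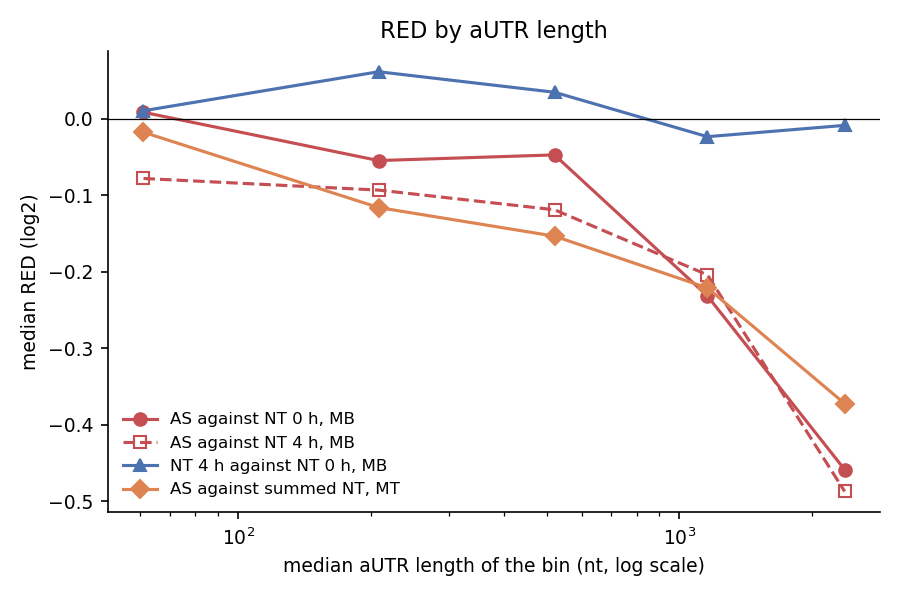
Median RED (log2) of genes divided into 5 bins by aUTR length (median length of each bin in nt, log scale): AS against each NT library of MB cells, NT 4 h against NT 0 h of MB cells, and AS against summed NT of MT cells. The 3 AS lines are lowest in the longest bin, at −0.46 and −0.49 in MB cells, and the line against NT 0 h is not in order throughout (−0.0546 in the second bin and −0.0472 in the third), while the NT line stays between −0.02 and 0.06.

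For single genes the NT libraries differed much from each other. By Fisher's exact test (P under 0.05) with a change above 5 percentage points, 194 genes had shortened and 54 lengthened 3′UTRs against NT 0 h, and 375 and 212 against NT 4 h. The same criteria applied to NT 4 h against NT 0 h gave 219 shortened (10.2%) and 226 lengthened (10.5%) genes. The shortened count was thus above that between the NT libraries against NT 4 h and below it against NT 0 h. Against both NT libraries in the same direction, 92 genes were shortened (4.27%) and 24 lengthened (1.11%). Shortened genes outnumbered lengthened ones by 3.83 to 1 in AS cells against both NT libraries. Against single libraries the ratio was 3.59 to 1 for NT 0 h and 1.77 to 1 for NT 4 h. Between the NT libraries, also a single comparison, it was 0.969 to 1. An edgeR test of isoform by group over the 8 libraries found 0 genes in either direction (92 shortened and 21 lengthened at an unadjusted p under 0.05), and Fisher's exact test compares libraries, not conditions. Fisher's exact test also gains power with depth, which was highest in the AS library.

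The 92 shortened genes had a median aUTR of 1603 nt, against 521 nt over all 2155 pairs and 310 nt for the 24 lengthened genes, and 44 of the 92 were in the bin of the longest aUTRs. Their dPAS carried a median of 68.9% and 75.5% of the pair's reads in NT cells and 51.8% in AS cells, values on which the calls themselves rest. The pPAS had AATAAA within 40 nt in 59.8% of shortened genes, in 29.2% of lengthened genes and in 47.8% of all pairs, and the dPAS in 60.9%, 54.2% and 59.0%. The aUTRs had a median of 33.2% uridine in shortened genes and 32.3% in all pairs. The median gene log2FC was −0.20 in shortened genes and −0.10 over all pairs, and Dnaja4 was the only shortened gene that also rose. In MT cells, 56 of the 90 shortened genes with enough reads (62.2%) had a RED below 0, against 60.2% of all 1926 pairs there, and the median RED was −0.18 against −0.17. The share in MT cells was thus near that of all pairs. Of the 22 lengthened genes measured in MT cells, 15 had a RED below 0 there.

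Genes with the most negative and most positive RED, among the 68 of the 116 genes that had at least 20 reads at either PAS in all 3 libraries, show what such a shift is in reads. The PAS sequences of 3 shortened and 2 lengthened genes whose NT libraries were close, and those of Dnajb1, are given for comparison of their signals (NCBIM37, last base is the PAS, poly(A) signal in capitals).
Dcaf10 pPAS, chr4:45387554-45387583, plus strand: taAATAAAactcagaagttggatgttggca
Dcaf10 dPAS, chr4:45392569-45392598, plus strand: AATAAAtatctgttgaatgaattgaataaa
Pafah1b2 pPAS, chr9:45776281-45776310, minus strand: ATTAAAcatgcttgtcactccaatatggga
Pafah1b2 dPAS, chr9:45773398-45773427, minus strand: ttaaTATAAAagtcaacatttcactgcaaa
Oxsr1 pPAS, chr9:119149788-119149817, minus strand: gtagcaATTAAAgttgattgttcagctgga
Oxsr1 dPAS, chr9:119147556-119147585, minus strand: tcAATAAAgagtaaattgtccttaatgata
Hnrnpu pPAS, chr1:180259167-180259196, minus strand: atcacaacaaaAGTAAAatgttgctttgta
Hnrnpu dPAS, chr1:180258699-180258728, minus strand: ccatttcttATTAAAaaaacttgttgtaaa
Dnajc8 pPAS, chr4:132109358-132109387, plus strand: gaatttttccaATTAAAtgtcttgcttaca
Dnajc8 dPAS, chr4:132109623-132109652, plus strand: cttttacgtatAATAAAtttttatacccaa
Dnajb1 pPAS, chr8:86134839-86134868, plus strand: cacagAATATAttacaatctttcaaagtcg
Dnajb1 dPAS, chr8:86135773-86135802, plus strand: gacagcATTAAAgactgatgctaaacctca

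Dcaf10, a substrate receptor of CUL4 ubiquitin ligases, has PASs 5015 nt apart in its 3′UTR. Its dPAS share was 46.2% (Wilson 95% confidence interval 34.6 to 58.1%) and 39.0% (29.2 to 49.8%) in NT cells and 20.8% (14.02 to 29.7%) in AS cells, a RED of −1.47 (Fisher's exact test, P = 0.000947 against NT 0 h and 0.00868 against NT 4 h). Pafah1b2, a catalytic subunit of platelet-activating factor acetylhydrolase, had dPAS shares of 23.6% and 28.5% in NT and 12.0% in AS cells (RED −1.40), from 52, 91 and 35 dPAS reads, with PASs 2883 nt apart. Oxsr1, a kinase activated by osmotic and oxidative stress, had 51.5% and 62.3% in NT and 33.6% in AS cells (RED −1.39). These 3 genes had NT shares whose difference did not pass Fisher's exact test (P = 0.405, 0.234 and 0.124). In MT cells, Pafah1b2 had 22.8% and 32.6% in NT and 13.3% in AS cells, and Oxsr1 71.2%, 69.8% and 53.3%. Dcaf10 had 46.9% and 49.7% in NT and 41.5% (33.4 to 50.1%) in AS MT cells, a RED of −0.42.

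Map3k7 (the kinase TAK1), Aars (alanyl-tRNA synthetase) and Ssr1 (a subunit of the translocon-associated protein complex) had large REDs, and their NT libraries differed as well. Map3k7 had a dPAS share of 49.3% in NT 0 h, 79.0% in NT 4 h and 22.0% in AS cells, with a RED of −2.62 in AS cells and of 1.96 between the NT libraries. Aars had 40.9%, 62.6% and 21.0%, and Ssr1 66.2%, 88.3% and 57.3%. In each of these 3 genes the NT libraries themselves differed by Fisher's exact test (P = 7.57e-07, 2.68e-06 and 5.07e-21), in the direction opposite to that of the AS library. Their RED in MT cells was 0.45, −0.08 and 0.03. Intervals and P values cover counting error only, since reads are not known to be independent molecules.

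The 6 lengthened genes had REDs of 0.90 to 1.30. Hnrnpu, which encodes a nuclear scaffold RNA-binding protein, had dPAS shares of 11.8% (9.47 to 14.7%) and 11.0% (9.02 to 13.3%) in NT and 19.8% (17.2 to 22.7%) in AS cells (RED 0.95), although its RED was −0.10 between its most proximal and most distal PASs. The splicing-associated HSP40 gene Dnajc8 had 87.3% in both NT libraries and 93.4% in AS cells (RED 1.04). The ubiquitin ligase gene Znrf2 went from 37.1% and 41.4% to 62.0% (RED 1.30), the import receptor gene Ipo7 from 21.8% and 18.8% to 34.5% (RED 1.03), the adiponectin receptor gene Adipor1 from 32.0% and 25.8% to 43.2% (RED 0.90) and Cdkn2aipnl from 75.1% and 71.5% to 84.3% (RED 0.96, and −0.22 when PASs past annotated ends were left out). The aUTRs of these 6 genes were between 265 nt (Dnajc8) and 1067 nt (Cdkn2aipnl) long. In MT cells 5 of the 6 had a RED below 0, and Dnajc8 was at 0.11.

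**Figure D5:**
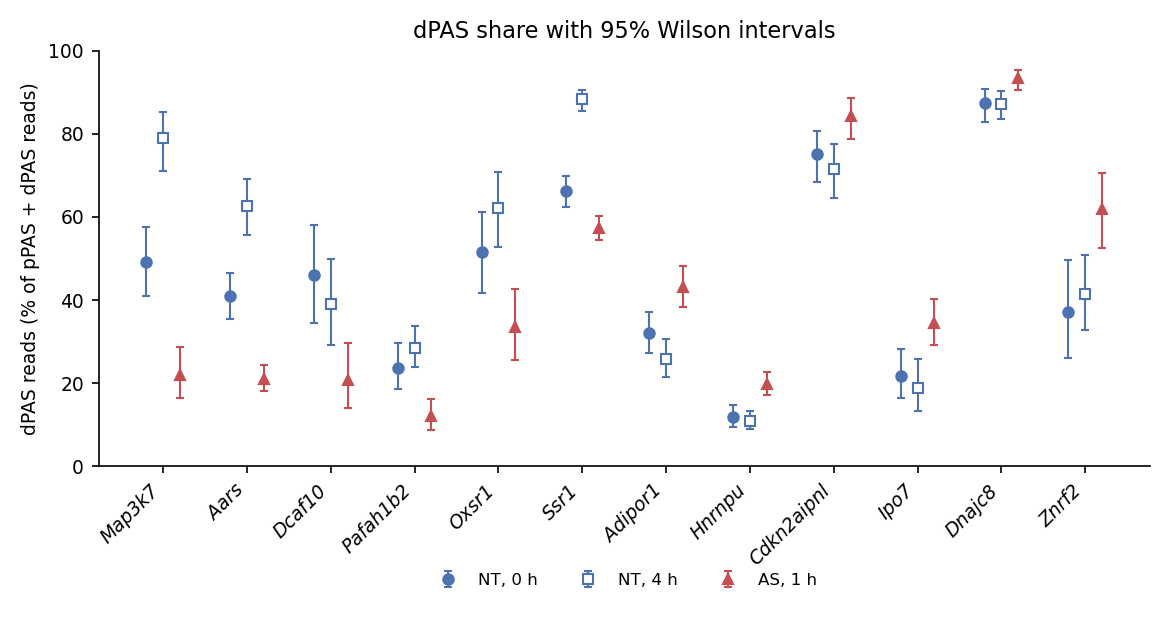
Reads at the dPAS as a percentage of pPAS and dPAS reads in NT 0 h, NT 4 h and AS MB cells for the 6 genes with the most negative (left) and the 6 with the most positive RED; bars are 95% Wilson confidence intervals. The AS point lies outside both NT points in every gene, as the rule by which the genes were chosen requires. The NT points of Map3k7, Aars and Ssr1 stand far from each other.

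Genes that rose could also be followed by isoform. Dnaja4, with PASs 910 nt apart, had 9 pPAS and 13 dPAS reads in NT 0 h, 10 and 8 in NT 4 h, and 167 and 34 in AS cells. Its dPAS share of 59.1% (38.7 to 76.7%) and 44.4% (24.6 to 66.3%) in NT became 16.9% (12.4 to 22.7%) in AS cells (RED −2.44, Fisher's exact test P = 4.17e-05 and 0.00941), so most of the added reads were at the pPAS. Dnajb1 had dPAS shares of 84.9% and 84.6% in NT and 81.8% (80.7 to 82.8%) in AS cells (RED −0.31, Fisher's exact test P = 0.173 and 0.278), and 64.4% in the RC library. Jun had a dPAS share of 25.0% and 45.5% in NT and 22.9% in AS cells, inside counting error of NT 0 h. Of 7 genes that the study names for their 3′UTR isoforms, Dnajb1 among them, none passed against both NT libraries in MB cells. The study measured these genes by RT-qPCR, in NIH3T3 or C2C12 cells, which is another measure. Nmt1 is also shown there by 3′READS in NIH3T3 cells, and 3′UTRs of Nmt1, Timp2 and Dnajb1 were tested in luciferase reporters. For Rpl22 and Fam49b the study describes only modest shortening by stress, and for Dnajb1 and Hspa4l shortening in stressed cells alone. It also reports more shortening in MB cells at 4 h of recovery than at 1 h of AS. Nmt1 had dPAS shares of 32.8% and 13.5% in NT and 30.4% in AS cells, and Timp2 79.0%, 61.7% and 68.2%. Rpl22 had 36.03%, 32.2% and 27.5% (RED −0.44), Hspa4l 34.0%, 40% and 29.5% (RED −0.44), Fam49b 13.0%, 4.51% and 6.09% and Purb 2.35%, 3.77% and 2.14%. The Purb shares rest on only 6, 13 and 6 dPAS reads, at a PAS 2077 nt past the annotated end. For Nmt1, Timp2 and Fam49b the AS share lay between the NT shares.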

How the data were processed

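Sequences of the 3′READS libraries were trimmed by the authors (Cutadapt) and aligned to mm9 with bowtie2 (local alignment, mapping quality of at least 10, untemplated Ts required). The deposited files hold counts for clusters of PASs up to 24 nt apart, not normalized, and list no cluster under 5 reads. Positions within 24 nt were joined over 10 C2C12 libraries and assigned to last exons of coding genes of GENCODE vM1 (NCBIM37) or up to 4000 nt past their ends. Mitochondrial genes and 66 ambiguous clusters were left out.

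Gene sums of 8 cytoplasmic libraries in 6 groups were fitted with edgeR 4.0.16 (TMM, filterByExpr, quasi-likelihood test, Benjamini-Hochberg, threshold 0.05; common dispersion 0.041, 2 residual degrees of freedom); DESeq2 1.42.0 was an alternative. DESeq2 gave no adjusted p to 7827 genes for AS against NT and to 9588 genes for the MB and MT difference. Its counts thus come from an adjustment over fewer genes than those of edgeR. In edgeR, SE is log2FC divided by the root of F. A gene without a listed PAS in a library was put at 4 reads per PAS for bounds. Isoform pairs (the 2 most abundant PASs, at most 10000 nt apart) were tested by Fisher's exact test as the study did, in scipy 1.17.1. Both tests were tried on simulated data. Replicates 1 and 2 of NT are the 0 h and 4 h libraries; depth was 1649925 to 2560185 reads, which limits precision as the intervals show.

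Some genes that met these rules are not reported here. The members and gene lists were chosen with earlier results of these data known. Named genes were list members, the 12 largest changes in each direction past the threshold outside both NT values with a mean of 50 reads or more, and the 6 lowest and 6 highest REDs among genes that passed against both NT libraries with 20 reads or more of each isoform; the 6 largest MB and MT differences past the threshold were to be named, and there were none. Alternatives covered normalization, filters, 3′UTR limits, libraries in the fit and isoform criteria. The other libraries, apart from 2 of total MB RNA used in joining positions, were not used here.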

Additional observations from a re-analysis of the deposited data

Results flagged for a closer look

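In 5 genes reported here with a mean of at least 50 reads, the AS library lay at least 2-fold outside both NT libraries in MB cells. For these genes the AS library of MT cells lay outside both NT libraries on the opposite side, with small changes. Of the 84 genes 2-fold above both MB NT libraries, 4.76% were below both MT NT libraries, against 37.8% of all genes. Of the 28 genes 2-fold below, 7.14% were above both, against 41.5% of all genes. Ifnar2 had a log2FC of 1.54 in MB and −0.01 in MT cells, Sparc 1.12 and −0.15, and Ly6e 1.11 and −0.16. Elk1 had −1.27 in MB and 0.20 in MT cells, and Pkig −1.15 and 0.30. The difference of the log2FCs, tested in the same edgeR fit, was largest for Ifnar2 (1.555) and had the smallest unadjusted p for Pkig (0.00246); the adjusted p was 0.831 for all 5 genes.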

How the results depend on the processing

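No paired analysis was possible because the AS condition has 1 library and the groups compared share fewer than 2 replicate numbers. Of 130 combinations of a named risen gene and an alternative, 119 kept the call, 11 lost it and none reversed; the losses were Dnaja4 and Hspb1 with DESeq2's size factors, library totals and no filter, Jun with library totals, and Fos, Hspa1b, Zfp36 and Hspb1 with no extension past annotated ends. The count of genes higher in AS MB cells was 34 with a filter at 50 reads on average, 44 with DESeq2, 7 with no extension past annotated ends, 49 with the 3 MB libraries and 35 with the 4 MB libraries alone; lower genes were 10 with DESeq2, 3 with 3 MB and 1 with 4 MB libraries. Leaving out an NT library gave 45 to 420 higher and 3 to 182 lower genes. The MB and MT difference was 5 higher and 5 lower genes with DESeq2, and 0 to 21 and 0 to 6 without an NT library. Genes beyond both NT libraries were 59 above and 29 below at 3-fold, 859 and 723 at 1.5-fold, 84 and 28 with a mean of 50 reads or more, 175 above with unlisted PASs at 4 reads, and 532 to 1030 above and 380 to 760 below without an NT library; the mean of 50 reads and the 4 reads for unlisted PASs were chosen after seeing the data. Shortened and lengthened genes were 53 and 15 with more than 20 reads, 25 and 3 with Benjamini-Hochberg adjustment, 314 and 131 against summed NT reads, 60 and 12 at 10 percentage points, 0 and 0 with edgeR, and 201 to 395 and 61 to 226 without an NT library. The median RED was −0.14 to −0.17 without an NT library and moved by less than the spread of the NT values otherwise. With the most proximal and distal PASs the RED of Hnrnpu reversed to −0.10, and with no extension that of Cdkn2aipnl to −0.22. The cause was not tested, except that fewer genes or libraries enter by construction. Depth limits isoform calls in genes with few reads.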
